A study of Homo sapiens with 6 samples.

Results

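Genes named ZNF followed by a number, most of which encode proteins with C2H2 zinc fingers, were followed in HT1080 cells with and without PGK1 overexpression. A gene was taken where its symbol was ZNF, a number and at most 1 further letter, and its mean over all 6 libraries was at least 5 CPM, the usual read count scaled to a common library size, here by the column sum. Of the 21619 rows in the deposited table, 510 had such a symbol and 328 of these reached the minimum; the other 182 did not. Members were thus chosen by their mean level over both groups, so that level is not a finding, and 36 of them had a mean under 5 CPM in 1 of the groups. Just inside the minimum were ZNF782, ZNF250 and ZNF341, with means of 5.01, 5.02 and 5.22 CPM, and just outside it were ZNF552, ZNF784 and ZNF30, with 4.85, 4.76 and 4.58 CPM.

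HT1080 is a human fibrosarcoma cell line. PolyA RNA was sequenced from 3 libraries labelled wild type (WT) and 3 from cells with stable overexpression of PGK1, the glycolytic enzyme phosphoglycerate kinase 1 (PGK1_OE). All carry the same batch label, and the labels do not say whether the WT cells hold an empty vector, how PGK1 was introduced, or whether the replicates are separate cultures or the overexpressing cells are 1 clone. Spread between replicates, on which all p-values rest, may thus be technical.

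A C2H2 finger is a small fold held by zinc that reads a few bases of DNA, and proteins with many fingers in a row bind longer DNA sites. Many of these proteins also carry a KRAB box, which recruits TRIM28, and TRIM28 in turn brings the histone methyltransferase SETDB1 and the HP1 proteins, so that the bound DNA is silenced. KRAB zinc-finger genes lie mostly in clusters on chromosome 19 and are best known for silencing transposable elements. Other members of the family act outside this route, in ribosome assembly, mitosis, chromatin complexes and gene activation.

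Levels per library below are CPM normalised with edgeR's TMM factors. Libraries held 34425162 to 40538274 counts, and every member had at least 58 counts in every library. PGK1 averaged 523 ± 4.03 CPM (SD, n = 3) in WT and 12660 ± 597 CPM in PGK1_OE, in the direction the labels give. The mesenchymal markers VIM and CD44 were high in all libraries, and the summed level of 6 mesenchymal markers was 2551 to 3047 CPM in WT and 4739 to 4780 CPM in PGK1_OE. This sum was carried by VIM, with means of 1890 and 3569 CPM, and CD44, with 794 and 1062 CPM. CDH2 of the same list went the other way, with means of 153 and 105 CPM, and THY1 and S100A4 were under 2 CPM in all libraries. The epithelial markers EPCAM and KRT5, the blood marker PTPRC, the hepatocyte marker ALB, the muscle marker MYOD1 and the melanocyte marker SOX10 were at 0 in all 6 libraries. An endothelial list of 3 genes summed to 4.05 to 5.28 CPM in WT and 10.1 to 13.3 CPM in PGK1_OE. PECAM1 made this difference, with means of 3.15 and 10.4 CPM, while VWF (1.40 and 0.853 CPM) and CDH5 (0.279 and 0.0504 CPM) were lower in PGK1_OE. The part of these marker differences in the results was not tested. In bulk RNA, fewer cells of a type and less RNA per cell cannot be told apart.

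Most of the changed ZNF genes were lower in the PGK1-overexpressing cells, but a smaller set rose. The largest change of all was a rise, in ZNF367, which averaged 2.30 CPM in WT and was a member only through PGK1_OE. By edgeR's quasi-likelihood test with an adjusted p under 0.05 over all 14322 rows tested, 216 of the 328 members fell, 42 rose and 70 did not pass. Changes were common in this comparison. Among the 10852 tested rows with a mean of at least 5 CPM, 79.7% passed, 40.8% higher and 39.0% lower, and over all rows tested 71.2% passed, 35.4% higher and 35.8% lower. The members' shares were 12.8% higher and 65.9% lower. Their median log2 fold change was -0.50 (quartiles -0.95 and -0.09), against 0.01 for rows of at least 5 CPM and -0.02 for all rows tested. At least 2-fold changes that passed were found in 4 members upward and 72 downward, where 11.3% and 9.40% of all rows of at least 5 CPM made such changes. Of these members, 2 of the 4 and 21 of the 72 had a mean under 5 CPM in 1 group, so they were members only through the group where they were high. Among the 292 members with at least 5 CPM in both groups, 2 rose and 51 fell at least 2-fold, and 36 rose and 190 fell in all, with a median of -0.48. Their log2 fold changes ran from -1.95 to 1.90, so the largest change among them was a fall. Passing or not, WT and PGK1_OE values did not overlap in 48 of the 328 members upward and in 220 downward. Groups were apart in this way in 83.0% of all rows of at least 5 CPM, 42.4% higher and 40.6% lower. Of the members that passed, groups were apart in 41 of those that rose and 212 of those that fell.

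**Figure D1:**
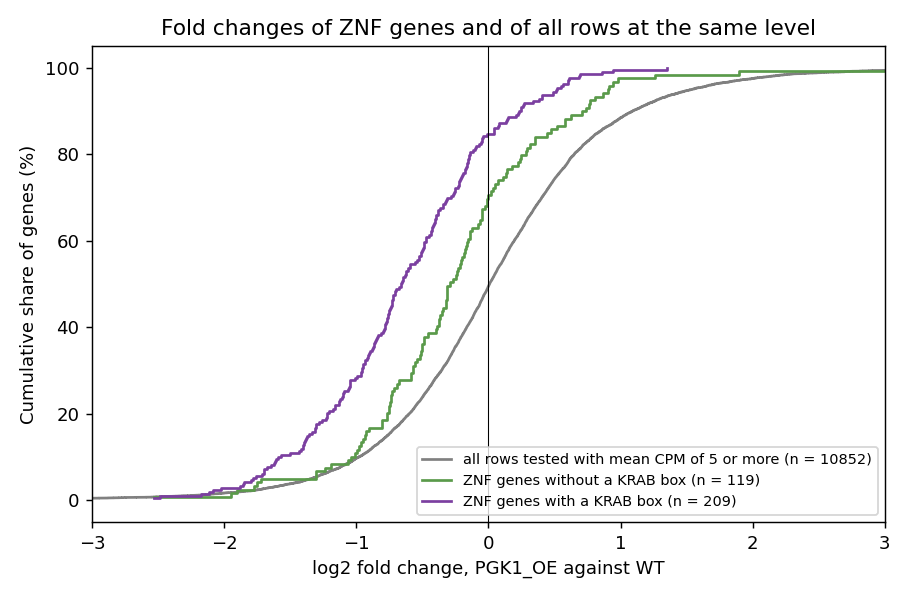
Distribution of log2 fold changes (PGK1_OE over WT) for the 209 ZNF members with a KRAB box, the 119 without one and all tested rows with a mean of at least 5 CPM; the x axis is the log2 fold change and the y axis the cumulative share of genes. The KRAB curve lies left of the others, with a median of -0.66, against -0.29 for the members without the box and 0.01 for all rows of that level.

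Summed over the family, the fall was seen in every library. The 328 members took 1.10%, 1.10% and 1.08% of the counts in WT replicates 1, 2 and 3 and 0.744%, 0.758% and 0.741% in PGK1_OE replicates 1, 2 and 3. Their summed level was 10784 ± 97.0 CPM (SD, n = 3) in WT and 7599 ± 103 CPM in PGK1_OE. The KRAB members summed to 5213 ± 35.8 CPM in WT and 3135 ± 28.5 CPM in PGK1_OE, and the members without a KRAB box to 5571 ± 80.4 and 4464 ± 75.5 CPM. In each of these sums the highest PGK1_OE library lay below the lowest WT library.

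**Figure D2:**
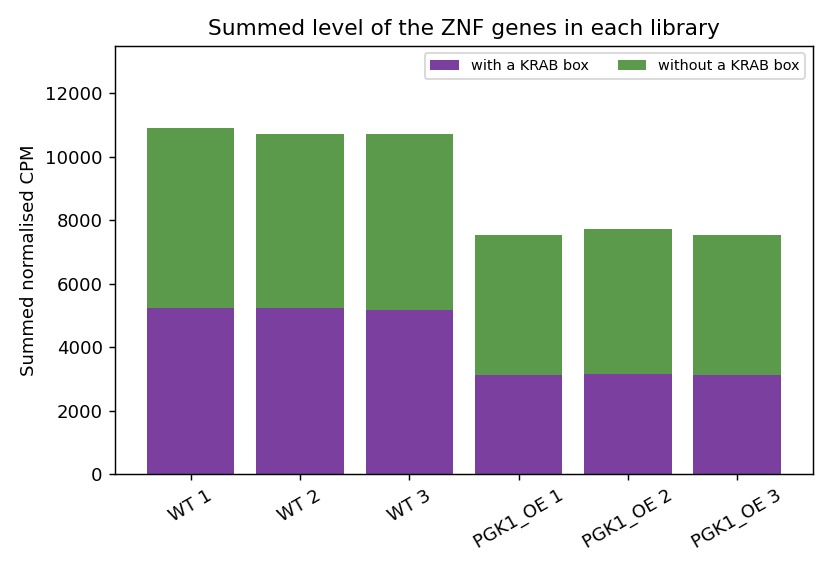
Stacked bars, from 0, of the summed normalised CPM of the ZNF members in each of the 6 libraries, with the KRAB members at the bottom and the members without a KRAB box on top. The 3 WT bars reach 10722 to 10896 CPM and the 3 PGK1_OE bars 7537 to 7718 CPM, with KRAB parts of 5172 to 5240 and 3111 to 3167 CPM.

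ZNF367, a C2H2 protein with few fingers, had the largest change among the members. It was at 1.53, 2.21 and 3.17 CPM in WT and at 47.4, 64.6 and 53.6 CPM in PGK1_OE, so that every overexpressing library was far above every WT library. Its WT mean of 2.30 CPM was under 5 CPM, so it was a member only through PGK1_OE. By edgeR the change was 4.58 ± 0.28 (SE) on the log2 scale, with an adjusted p of 4.61e-05. The gene lies on chr9:96385941-96418329, minus strand (GENCODE 29 on GRCh38). The 250 bases before its start in RefSeq, shown because this is the strongest response in the family, hold 2 matches to the letters that E2F factors of the cell cycle bind, in the stretch nearest the start. The searched E2F letters were TTTCCCGC, TTTGGCGC and TTTCGCGC on either strand, the capitals mark the matches, both on the reverse strand, and the window is chr9:96418371-96418620 (GRCh38.p14, minus strand).

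ZNF367: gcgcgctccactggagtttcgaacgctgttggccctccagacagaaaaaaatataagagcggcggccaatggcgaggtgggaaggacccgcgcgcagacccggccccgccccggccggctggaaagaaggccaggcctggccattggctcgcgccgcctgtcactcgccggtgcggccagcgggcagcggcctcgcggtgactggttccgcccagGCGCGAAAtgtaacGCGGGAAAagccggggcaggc

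Such letters stood in 14 of the 287 member promoters that could be matched by symbol (4.88%), against 5.23% of promoters of genes tested at 5 CPM or more and 2.85% of all 27305 promoters. Among the 37 members that rose and had a promoter, 2 held them, and the match is a description of these windows only.

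The next largest rises were found in genes of several kinds. The 10 largest rises and the 10 largest falls were taken only among passing members whose groups were apart. That separation is thus part of the choice and not a finding. ZNF618, a partner of the hydroxymethylcytosine reader UHRF2, was at 10.4, 9.42 and 8.20 CPM in WT and at 35.0, 35.9 and 33.7 CPM in PGK1_OE (edgeR log2 fold change 1.90 ± 0.09 SE, adjusted p = 6.78e-09). ZNF341, an activator of STAT genes, was at 3.04, 2.89 and 3.36 CPM against 6.97, 7.97 and 7.32 CPM (edgeR log2 fold change 1.26 ± 0.15 SE, adjusted p = 1.45e-05). The values of both genes were separate between the groups, and ZNF618 varied little among the overexpressing libraries. ZNF318, known for its part in switching between IgM and IgD in B cells, was at 29.1, 28.7 and 30.8 CPM in WT and at 57.1, 58.2 and 59.4 CPM in PGK1_OE (edgeR log2 fold change 0.98 ± 0.05 SE, adjusted p = 1.69e-08). ZNF510, the KRAB member with the largest rise, was at 6.70, 5.72 and 4.18 CPM against 12.7, 15.6 and 13.96 CPM (edgeR log2 fold change 1.35 ± 0.17 SE, adjusted p = 2.05e-05). Its lowest overexpressing library was above its highest WT library. The remainder of the 10 largest rises were ZNF726 (log2 fold change 0.94, KRAB), ZNF668 (0.94), ZNF771 (0.91), ZNF576 (0.87) and ZNF107 (0.86, KRAB). ZNF341, ZNF726 and ZNF771 averaged under 5 CPM in WT (3.09, 4.07 and 4.12 CPM), so they too were members only through PGK1_OE. On the deposited FPKM scale (a level per transcript length and library size) ZNF107 had a log2 fold change of only 0.12 with log2(FPKM + 1), and limma's adjusted p was 0.564.

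The largest falls were found in genes with and without a KRAB box, which 209 of the 328 members carry. ZNF501 on chromosome 3 was at 12.7, 11.6 and 11.7 CPM in WT and at 1.57, 2.17 and 2.47 CPM in PGK1_OE (edgeR log2 fold change -2.53 ± 0.18 SE, adjusted p = 1.16e-07). ZNF441, a KRAB gene, was at 22.4, 20.7 and 18.0 CPM against 3.50, 3.58 and 3.49 CPM (edgeR log2 fold change -2.53 ± 0.12 SE, adjusted p = 4.19e-09). For both, the lowest WT library was several times the highest overexpressing library. ZNF333, a protein that carries KRAB boxes, was at 23.3, 26.1 and 23.3 CPM against 4.12, 3.98 and 4.85 CPM (edgeR log2 fold change -2.49 ± 0.11 SE, adjusted p = 3.29e-09). ZNF550, another KRAB gene, was at 84.1, 85.3 and 79.4 CPM against 22.2, 24.0 and 21.3 CPM (edgeR log2 fold change -1.88 ± 0.06 SE, adjusted p = 2.54e-10). ZNF550 overlaps its neighbour ZNF549 on the other strand, and since the strand setting of the counting is not given, its value may include reads of that gene. Others among the 10 largest falls were ZNF583 (log2 fold change -2.18), ZNF485 (-2.12), ZNF699 (-2.09) and ZNF460 (-2.03), all with a KRAB box, and ZNF397 (-1.95), a SCAN domain protein that overlaps ZSCAN30. ZNF501, ZNF441, ZNF333, ZNF583, ZNF485, ZNF699 and ZNF460 averaged under 5 CPM in PGK1_OE, so they were members only through WT. With log2(FPKM + 1), where the added 1 shrinks differences at low levels, ZNF367 (3.21), ZNF618 (1.18) and ZNF510 (0.73) were also higher and ZNF501 (-1.51), ZNF441 (-1.63), ZNF583 (-1.20), ZNF699 (-1.11) and ZNF460 (-1.19) also lower, by smaller amounts. The last of the 10, ZNF593, is described with the ribosome genes. Among these 20 genes, ZNF501, ZNF441, ZNF485, ZNF618 and ZNF510 overlap no other annotated gene.

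**Figure D3:**
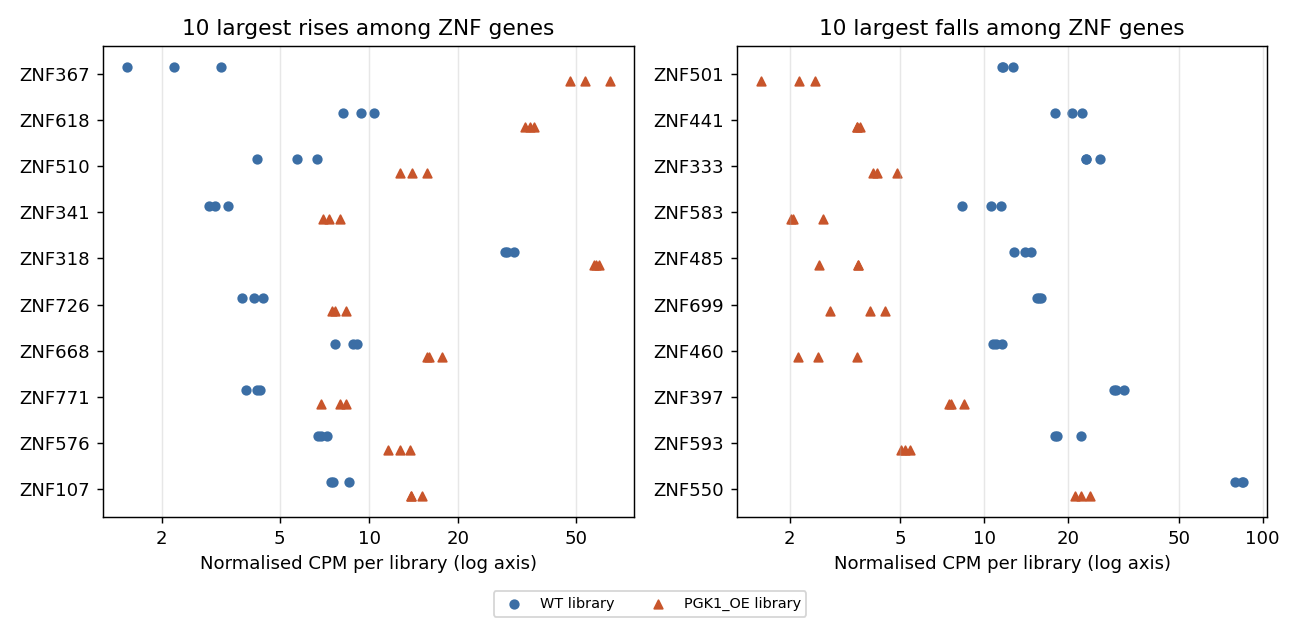
Normalised CPM in each library (log axis) for the 10 ZNF members with the largest rises and the 10 with the largest falls, with 3 WT and 3 PGK1_OE points per gene. Genes were taken only where the groups were apart. The change of ZNF367, from 1.53 to 3.17 CPM up to 47.4 to 64.6 CPM, exceeds all others.

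By level per length, the most abundant members moved in both directions. ZNF655, a KRAB member, had the highest mean level (79.3 FPKM), and its counts fell from 240, 253 and 247 CPM to 124, 116 and 114 CPM (edgeR log2 fold change -1.06 ± 0.04 SE, adjusted p = 1.42e-09). ZNF146, which consists almost only of fingers, was at 324, 326 and 325 CPM in WT and 136, 140 and 138 CPM in PGK1_OE (edgeR log2 fold change -1.23 ± 0.03 SE, adjusted p = 9.77e-11). In both genes each group was tight and the groups were far apart. ZNF146 overlaps ZNF565 on the other strand. The others of the 10 highest by mean FPKM were ZNF622 (73.3), ZNF207 (70.6), ZNF639 (42.0), ZNF384 (41.3), ZNF330 (39.4), ZNF410 (33.7), ZNF595 (32.1) and ZNF664 (32.1). ZNF639 fell with a log2 fold change of -0.40, and ZNF595, a KRAB gene, rose with 0.27. ZNF664 passed at a log2 fold change of 0.11 (edgeR adjusted p = 0.0342), but not when scaled by library totals (0.174) or without WT replicate 1 (0.0733), PGK1_OE replicate 2 (0.102) or PGK1_OE replicate 3 (0.122).

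Of the 8 members listed for roles at RNA and the ribosome, 4 fell, 1 rose and 3 did not pass. Among all tested rows of at least 5 CPM, 39.0% fell and 40.8% rose. ZNF593, whose yeast relative accompanies the large ribosomal subunit out of the nucleus, was at 18.3, 22.2 and 17.9 CPM in WT and at 5.17, 5.04 and 5.42 CPM in PGK1_OE (edgeR log2 fold change -1.90 ± 0.12 SE, adjusted p = 4.11e-08). ZNF330, a nucleolar protein, was at 108, 110 and 105 CPM against 46.6, 46.2 and 48.5 CPM (edgeR log2 fold change -1.19 ± 0.04 SE, adjusted p = 7.39e-10). Both genes were lower in all 3 overexpressing libraries by far more than the spread. ZNF598, the ubiquitin ligase that marks collided ribosomes, was at 132, 139 and 144 CPM against 86.1, 87.7 and 85.9 CPM (edgeR log2 fold change -0.68 ± 0.04 SE, adjusted p = 6.2e-08). ZNF622, which acts in a late step of large subunit maturation, was at 166, 147 and 156 CPM against 105, 116 and 114 CPM (edgeR log2 fold change -0.49 ± 0.05 SE, adjusted p = 6.44e-06). Again no overexpressing library reached the WT range. ZNF638, a nuclear protein involved in silencing of retroviral DNA, passed upward at 0.18 in counts and did not pass on the FPKM scale. The log2 fold changes of the double-stranded RNA binder ZNF346 (0.24, edgeR adjusted p = 0.0648), the splicing factor ZNF326 (-0.01, 0.844) and the RNA binder ZNF106 (-0.00, 0.95) did not pass. Without WT replicate 2, ZNF346 passed (0.0377).

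In the list of 3 genes for mitosis and DNA replication, ZNF367 and ZNF207 rose and ZNF830 fell. Of all tested rows of at least 5 CPM, 79.7% passed in either direction. ZNF207, which loads the checkpoint protein BUB3 onto kinetochores, was at 272, 239 and 258 CPM in WT and at 388, 408 and 387 CPM in PGK1_OE (edgeR log2 fold change 0.62 ± 0.05 SE, adjusted p = 3.04e-07). All 3 overexpressing libraries were above all WT libraries. On the FPKM scale the difference of ZNF207 was larger, with means of 37.2 FPKM in WT and 104 FPKM in PGK1_OE and a log2 fold change of 1.47 with log2(FPKM + 1) (limma adjusted p = 0.00057). ZNF830, needed for cell division in early embryos, had a log2 fold change of -0.38 (edgeR adjusted p = 0.00141).

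Of 12 genes listed for chromatin complexes, 11 were members, and ZNF518B was under the minimum. Of the members, 8 fell, 2 rose and 1 did not pass. Over all rows of at least 5 CPM, 39.0% fell and 40.8% rose. ZNF462 was at 74.7, 69.1 and 76.0 CPM in WT and at 21.0, 24.6 and 21.1 CPM in PGK1_OE (edgeR log2 fold change -1.72 ± 0.07 SE, adjusted p = 1.85e-09). ZNF217, a partner of the CoREST and LSD1 repressor complex that is amplified in breast cancer, was at 152, 139 and 155 CPM against 82.7, 81.2 and 71.2 CPM (edgeR log2 fold change -0.92 ± 0.06 SE, adjusted p = 2.74e-07). Both groups were clearly apart in these genes. ZNF518A (log2 fold change -0.93), the SUMO ligase ZNF451 (-0.80), ZNF532 (-0.32) and the G9a partner ZNF644 (-0.18) also fell. ZNF532 works with ZNF592 and ZNF687 around the reader ZMYND8; ZNF592 passed at -0.20 (edgeR adjusted p = 0.0275) and ZNF687 did not at -0.13 (0.0914), although it passed with library totals (0.0272) and with log2(FPKM + 1) in limma (0.00304). The call of ZNF592 was lost without WT replicate 1 (0.103), WT replicate 3 (0.0699), PGK1_OE replicate 1 (0.093) or PGK1_OE replicate 3 (0.108). ZNF827, which recruits the NuRD complex to telomeres, passed narrowly at -0.23 (edgeR adjusted p = 0.0443), and its groups overlapped; the call was lost with DESeq2 (0.051), with the replicate block (0.0593) and without any 1 library other than WT replicate 2 (0.0679 to 0.201). ZNF219 (0.58) and ZNF335 (0.31), a member of a histone methyltransferase complex, rose.

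Of 13 genes listed as activators and general regulators, 12 were members, while ZNF423 was under the minimum. Of the members, 6 fell, 3 rose and 3 did not pass. Over all rows of at least 5 CPM, 39.0% fell and 40.8% rose. ZNF143 and ZNF76 are related activators that bind the same promoter motif, and they were called in opposite directions. ZNF143 was at 19.6, 23.6 and 18.4 CPM in WT and at 23.0, 26.2 and 26.2 CPM in PGK1_OE (edgeR log2 fold change 0.29 ± 0.10 SE, adjusted p = 0.0211). ZNF76 was at 19.1, 20.5 and 16.7 CPM against 11.4, 8.65 and 9.99 CPM (edgeR log2 fold change -0.91 ± 0.12 SE, adjusted p = 3.63e-05). The ZNF143 groups overlapped, and its call was lost without WT replicate 1 (0.0711), WT replicate 3 (0.0778), PGK1_OE replicate 2 (0.0818) or PGK1_OE replicate 3 (0.0883); the ZNF76 groups were apart. ZNF384 (0.29) and ZNF503 (0.58) also rose, and ZNF711 (-0.75), the pluripotency factor ZNF281 (-0.22) and ZNF131 (-0.21) fell. ZNF746, a KRAB member known as a repressor of PPARGC1A, passed at -0.21 (edgeR adjusted p = 0.0182) and ZNF148 at -0.14 (0.0321). Without WT replicate 1 neither passed (0.0749 and 0.056), and ZNF746 was also lost without PGK1_OE replicate 2 (0.0525) and ZNF148 without WT replicate 2 (0.132), PGK1_OE replicate 1 (0.128) or PGK1_OE replicate 3 (0.149). ZNF410, known for activating CHD4, was at 80.1, 79.3 and 73.2 CPM in WT and at 74.7, 80.2 and 73.8 CPM in PGK1_OE, overlapping groups (edgeR log2 fold change -0.02 ± 0.05 SE, adjusted p = 0.701). ZNF521 (0.24, 0.0747) and ZNF703 (0.03, 0.739) did not pass either, but ZNF521 did without WT replicate 3 (0.0491).

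Most KRAB members fell. Of 209 members with a KRAB box, 148 fell, 17 rose and 44 did not pass, with a median log2 fold change of -0.66; of 119 without one, 68 fell, 25 rose and 26 did not pass, with a median of -0.29. The difference between these sets was not tested. At least 2-fold falls that passed were found in 59 KRAB members and 13 of the others. KRAB members on chromosome 19 (122 genes, 93 lower and 7 higher) and elsewhere (87 genes, 55 lower and 10 higher) had medians of -0.68 and -0.64. In 18 members with a SCAN domain, 11 fell and none rose, with a median of -0.45. The box was found by script in translated coding sequences and no expression value entered the split; 3 genes lie at or just above the limit used and 2 just below it.

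Of 10 KRAB repressors listed for known targets, 6 were members, of which 5 fell and none rose. The genes ZNF10, ZNF93, ZNF382 and ZNF57 were under the minimum. Among all KRAB members 70.8% fell and 8.13% rose, against 39.0% and 40.8% of all rows of at least 5 CPM. ZNF568, whose mouse relative silences a placental transcript of IGF2, was at 25.9, 25.8 and 23.9 CPM in WT and at 7.87, 8.47 and 9.11 CPM in PGK1_OE (edgeR log2 fold change -1.57 ± 0.09 SE, adjusted p = 2.66e-08). ZNF91, which represses SVA retrotransposons, was at 22.1, 24.96 and 23.4 CPM against 13.5, 14.98 and 14.6 CPM (edgeR log2 fold change -0.71 ± 0.08 SE, adjusted p = 1.23e-05). In both, all overexpressing libraries were below all WT libraries. ZNF202, a repressor of lipid genes, had a log2 fold change of -0.77, the BRCA1 partner ZNF350 -0.64 and ZNF268 -0.62, and all passed. ZNF445, which protects imprinted loci, was at 36.8, 38.3 and 37.9 CPM against 39.3, 33.9 and 36.5 CPM and did not pass (edgeR log2 fold change -0.04 ± 0.06 SE, adjusted p = 0.59).

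The number of fingers was only weakly related to the change. Members with 0 to 3 fingers (34 genes) had 11 rises and 17 falls and a median of -0.16, those with 4 to 9 (108 genes) 11 and 66 and -0.39, those with 10 to 14 (115 genes) 12 and 83 and -0.62, and those with 15 or more (70 genes) 8 and 49 and -0.66. Across the 327 genes whose coding sequence could be translated, Spearman's rho between finger number and log2 fold change was -0.17, and between protein length and log2 fold change 0.03; genes are not independent replicates, and KRAB genes have more fingers (median 12 against 7). In ZNF185, ZNF330, ZNF365, ZNF503, ZNF703, ZNF738 and ZNF839 the finger pattern was not found in the longest coding sequence.

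In most gene clusters more members fell than rose, with exceptions in 2 of them. Runs of ZNF genes with gaps of at most 500000 bases and at least 5 members gave 15 clusters with 179 of the members. All coordinates are from GENCODE 29 on GRCh38. In the cluster at chr19:8509678-9675086 all 9 members fell, with a median of -0.80. At chr19:11483427-12633840, 8 of 9 members fell (median -1.16), among them ZNF441 and ZNF627 (-1.71). At chr19:36214602-37469275, 14 of 15 fell (median -1.10), among them ZNF146, ZNF568, ZNF875 (-1.86), ZNF420 (-1.10) and ZNF569 (-1.39), and only ZNF850 was called higher, at 0.38. On the FPKM scale ZNF850 had a log2 fold change of -0.0237. At chr19:43596392-44500524, 15 of 19 fell and 1 rose (median -0.75), with ZNF155 at -1.60. At chr19:51571298-53580269, 16 of 20 fell (median -0.46), with ZNF528 at -1.43 in counts and -2.32 with log2(FPKM + 0.1). The largest cluster, chr19:57191500-58481230 near the end of the chromosome, held 33 members, of which 25 fell and 1, ZNF530, rose (median -0.63). ZNF530 had a log2 fold change of 0.57 in counts and of 0.15 with log2(FPKM + 1), where it did not pass (limma adjusted p = 0.22).

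The cluster at chr7:64307459-65401135, near the centromere, had no member that fell. Of its 11 ZNF genes, 5 were members, all with a KRAB box. The members ZNF107 (0.86), ZNF92 (0.70), ZNF138 (0.55) and ZNF680 (0.49) rose, and ZNF736 (0.33) did not pass. ZNF92 was at 9.61, 9.90 and 10.4 CPM in WT and at 15.9, 15.3 and 17.2 CPM in PGK1_OE (edgeR adjusted p = 4.86e-05, SE 0.10), and its groups were apart. The other exception was the cluster at chr19:19668796-24129961, where 18 of 38 ZNF genes were members. Of these, 6 rose, 4 fell and 8 did not pass (median 0.03). ZNF726 (0.94), ZNF431 (0.69), ZNF738 (0.61), ZNF101 (0.60), ZNF100 (0.51) and ZNF714 (0.36) rose, and ZNF14 (-1.68), ZNF506 (-1.28), ZNF91 (-0.71) and ZNF681 (-0.61) fell. Without PGK1_OE replicate 2 the call of ZNF714 was lost (edgeR adjusted p = 0.0531), and without PGK1_OE replicate 1 that of ZNF738 (0.0522). ZNF431 was at 13.0, 13.2 and 13.3 CPM in WT and at 20.1, 22.2 and 21.2 CPM in PGK1_OE (edgeR adjusted p = 1.26e-05, SE 0.08). ZNF14 was at 8.97, 8.86 and 9.26 CPM against 2.32, 2.42 and 3.72 CPM (edgeR adjusted p = 8.63e-06, SE 0.19). The groups were apart in both, in opposite directions within 1 cluster.

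The mixed picture on chromosome 19 depended on the scale. With log2(FPKM + 1) in limma that cluster had 4 members higher and 7 lower with a median of -0.14, with library totals its median was -0.01, and ZNF431 had a log2 fold change of -0.0246 on the FPKM scale. The chromosome 7 cluster kept a median above 0 on the FPKM scale, with no member lower. With log2(FPKM + 1) its median was 0.32, with 3 members higher among the 4 with a value. With log2(FPKM + 0.1) it was 0.41, with 2 higher among 4. With log2(FPKM + 1) and no filter it was 0.23, with 2 higher among all 5. ZNF680 did not pass in the latter 2 fits (limma adjusted p = 0.0514 and 0.0701). The largest rise of this cluster in counts, ZNF107, passed in none of these FPKM fits (limma adjusted p = 0.467 to 0.564). Its log2 fold change was 0.12 with log2(FPKM + 1). Genes in these clusters are close copies of one another and may share reads, so that single values there are uncertain. The KRAB members of these 2 clusters, 22 genes chosen for this pattern, had 9 rises, 4 falls and a median of 0.24, while the other 187 KRAB members had 8 rises, 144 falls and a median of -0.73; these values describe the choice and were not tested.

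**Figure D4:**
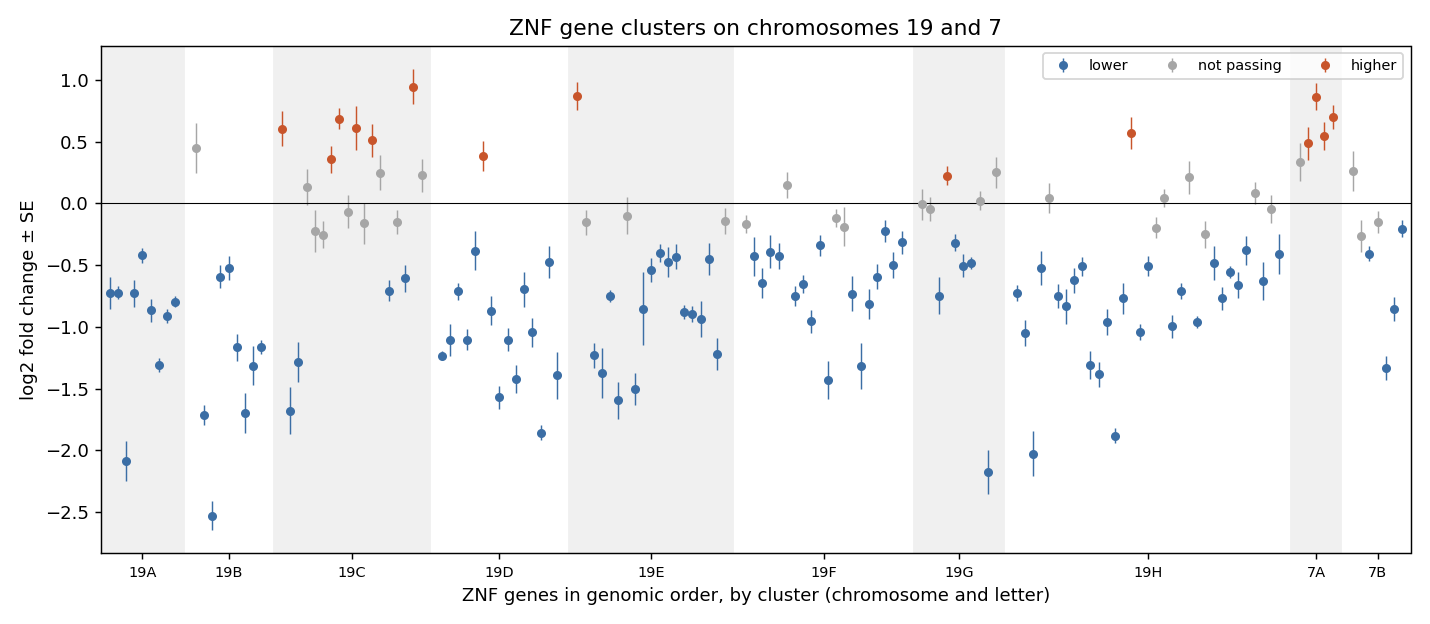
Log2 fold change (PGK1_OE over WT) of each member in the ZNF clusters of chromosomes 19 and 7, in order along each cluster, coloured by the edgeR call, with bars of ± 1 SE. Points lie mainly below 0 in most clusters, and the clusters 19C, with 6 members higher and 4 lower, and 7A, with 4 higher and none lower, stand out.

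The promoters of the family were searched for the motif that ZNF143 and ZNF76 share, searched on either strand in the 250 bases before the start. It stood in 40 of 287 member promoters (13.9%), in 32 of 187 KRAB promoters (17.1%) and in 8 of 100 others (8%), against 3.66% of promoters of genes tested at 5 CPM or more and 1.56% of all promoters. Among members with a promoter it stood in 30 of 188 that fell (15.96%), in 9 of 62 that did not pass (14.5%) and in 1 of 37 that rose (2.70%). Among KRAB members of the clusters on chromosomes 7 and 19 with as many or more rises than falls, it stood in 0 of 20. It stood in 32 of the 167 other KRAB promoters (19.2%). These clusters were chosen by their calls in the same data and hold close copies, so this contrast describes the choice and was not tested. Here "it" is the shared motif. Members with and without the motif had median log2 fold changes of -0.48 and -0.49. Within the KRAB members the medians were -0.48 for the 32 with the motif and -0.70 for the 155 without it, a difference that was not tested. Among the KRAB members with the motif, the 6 with the largest falls were chosen, so their falls exceed that set's median of -0.48. The 1 member with the motif that rose, ZNF850, was added. Stretches of these genes hold the match in capitals, with up to 25 bases on either side, 5′ to 3′ on the gene's strand. They lie, in the order printed, at chr12:132986270-132986332 (plus strand), chr3:75785641-75785703 (minus), chr19:36916082-36916127 (plus), chr20:2508916-2508962 (minus), chr19:37467445-37467487 (minus), chr19:43827234-43827296 (plus) and chr19:36772857-36772919 (minus), from RefSeq on GRCh38.p14.

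ZNF26: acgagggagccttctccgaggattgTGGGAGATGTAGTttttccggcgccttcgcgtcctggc
ZNF717: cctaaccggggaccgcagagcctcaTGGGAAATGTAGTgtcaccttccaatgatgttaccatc
ZNF568: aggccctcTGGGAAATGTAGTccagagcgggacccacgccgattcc
ZNF343: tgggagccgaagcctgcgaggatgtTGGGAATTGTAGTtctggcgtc
ZNF569: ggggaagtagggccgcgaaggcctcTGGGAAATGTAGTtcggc
ZNF283: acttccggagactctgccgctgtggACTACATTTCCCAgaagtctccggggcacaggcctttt
ZNF850: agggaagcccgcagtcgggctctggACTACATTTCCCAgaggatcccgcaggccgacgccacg

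ZNF26 was at 72.6, 66.9 and 72.2 CPM in WT and at 19.6, 21.6 and 19.9 CPM in PGK1_OE (edgeR log2 fold change -1.80 ± 0.06 SE, adjusted p = 4.19e-10). ZNF343 was at 76.7, 76.4 and 75.7 CPM against 28.0, 30.4 and 28.5 CPM (edgeR log2 fold change -1.39 ± 0.05 SE, adjusted p = 7.59e-10). Groups were far apart in both. ZNF717 (-1.62), ZNF569 (-1.39) and ZNF283 (-1.23) fell as well. ZNF850 was at 6.57, 6.76 and 6.80 CPM in WT and at 9.10, 8.14 and 9.05 CPM in PGK1_OE (edgeR log2 fold change 0.38 ± 0.12 SE, adjusted p = 0.0136), and it overlaps ZNF567 on the other strand. Other sets of letters were rare. The palindromic core motif of NRF1 stood in 8 of 287 member promoters (2.79%, against 2.56% of genes tested at 5 CPM or more), and the amino acid response letters ATTGCATCA in 0 of 287.

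Genes of the machinery that KRAB proteins recruit, and related chromatin genes, were counted from a list chosen with earlier results of these data known. Of 21 listed genes, 15 rose, 4 fell and 2 did not pass, with a median log2 fold change of 0.59, where 40.8% of all rows of at least 5 CPM rose and 39.0% fell, with a median of 0.01. TRIM28, the direct partner of the KRAB box, averaged 290 ± 19.97 CPM (SD, n = 3) in WT and 608 ± 16.7 CPM in PGK1_OE (edgeR log2 fold change 1.07 ± 0.05 SE, adjusted p = 4.24e-09). The DNA methyltransferase DNMT1 averaged 84.0 ± 7.12 and 308 ± 12.2 CPM (log2 fold change 1.88, edgeR adjusted p = 6.85e-10). The HP1 genes CBX1 (1.39) and CBX5 (0.69), the deacetylase HDAC1 (1.29), the TRIM28 relative TRIM24 (1.12) and the remodeller CHD3 (0.71) also rose. SETDB1, which writes the silencing mark at TRIM28 sites, was 1 of the 4 that fell. It averaged 40.1 ± 0.342 CPM in WT and 19.3 ± 1.18 CPM in PGK1_OE (edgeR log2 fold change -1.05 ± 0.07 SE, adjusted p = 4.89e-08). The groups did not overlap in any of the genes named here. These were named for the smallest adjusted p in the list, so their separation is largely part of the choice and not a finding. In the same list the groups overlapped in HDAC2 and TRIM33. Among all rows of at least 5 CPM, groups were apart in 83.0%.

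**Figure D5:**
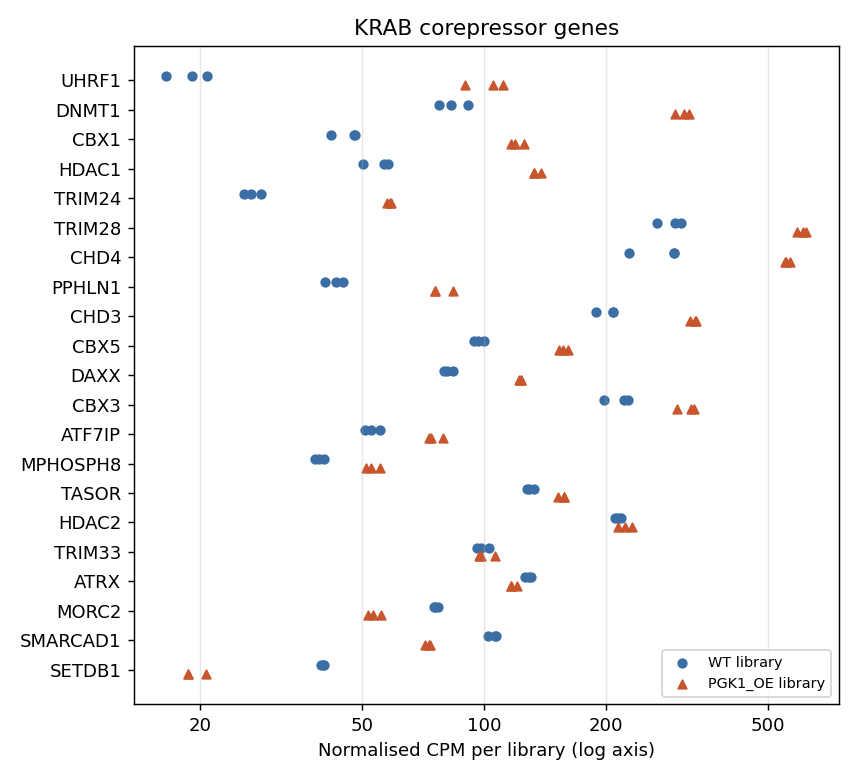
Normalised CPM in each library (log axis) of the 21 listed corepressor and related chromatin genes, ordered by fold change. Circles are the 3 WT and triangles the 3 PGK1_OE libraries. The triangles lie right of the circles in the 15 genes that rose, such as TRIM28, left of them in the 4 that fell, such as SETDB1, and among them in HDAC2 and TRIM33.

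Zinc-finger genes with other names were set beside the ZNF members at the same minimum of 5 CPM. Among all tested rows of that level 39.0% fell and 40.8% rose, and among the ZNF members 65.9% and 12.8%. Of 35 ZBTB genes, 17 fell (48.6%) and 9 rose (25.7%), with a median log2 fold change of -0.13. Of 19 ZSCAN and ZKSCAN genes, which share the SCAN domain, 15 fell (78.9%) and 1 rose (5.26%), with a median of -0.57. Of 10 ZFP genes, 6 fell (60%) and 2 rose (20%), with a median of -0.46. Differences between these families were not tested.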

How the data were processed

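PolyA RNA of 6 HT1080 libraries was compared, 3 WT and 3 PGK1_OE, grouped by sample titles. Per the submitters' processing notes, fastp, HISAT and hg38 were used; the sources used here give no version, counter, strand setting or annotation. The authors deposited raw counts per gene and FPKM values; counts were tested, and FPKM gave levels per length. Rows were filtered with filterByExpr, scaled by TMM and tested with edgeR 4.0.16 (robust quasi-likelihood, two-sided, R 4.3.3), with Benjamini-Hochberg adjustment over 14322 rows; each SE is derived from the F statistic. CPM for choosing members uses column sums; printed levels use TMM-normalised CPM. The members and lists were chosen with earlier results of these data known.

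Coordinates and overlaps come from GENCODE 29, matched by identifier. Of 328 members, 231 overlap another annotated gene, and their counts may include its reads. KRAB boxes were sought in translated GENCODE 29 coding sequences (all protein-coding isoforms) as 40-residue windows with at least 12 positions identical to a consensus. The consensus came from windows with a KRAB core pattern in all ZNF, ZFP, ZBTB, ZSCAN and ZKSCAN rows, at any level. Fingers were sought in the longest coding sequence as C, 2 or 4 residues, C, 12 residues, H, 3 to 5 residues, H. Promoters are RefSeq's.

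Named genes are PGK1, the 10 largest rises and falls past the threshold with groups apart, the 10 highest mean FPKM, those next to the minimum, the role lists and 8 corepressors with the smallest adjusted p. Cluster members, ZNF23, ZNF395 and genes with printed promoters were named after their values were seen. Alternatives were RLE factors, library totals, PGK1 left out of the scaling, other low-count filters, DESeq2 1.42.0, limma 3.58.1 (voom, or log2(FPKM + 1) and log2(FPKM + 0.1)), the replicate block, each library left out, other member minimums and, added after seeing the data, members with no overlapping gene and a stricter KRAB limit of 16 positions.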

Additional observations from a re-analysis of the deposited data

How the results depend on the processing

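The count of members lower stayed within 1.5 times of 216 under every alternative run on all members, and the median stayed below 0 in all. The median log2 fold change of -0.50 became -0.54 with library totals, -0.42 with log2(FPKM + 1), with or without a filter, -0.53 with log2(FPKM + 0.1), -0.51 for the 242 members of at least 10 CPM, -0.48 for the 292 with at least 5 CPM in both groups, and -0.52 for the 97 that overlap no other gene. Of those 97, 69 fell and 12 rose; 45 fell and 8 rose among 64 with a KRAB box, and 24 fell and 4 rose among the other 33. Of the 242 members, 26 rose, 6 of them with a KRAB box. KRAB members higher numbered 17, but 11 with log2(FPKM + 0.1) and 9 with log2(FPKM + 1) and no filter; the cause was not tested. Leaving out each library in turn gave medians of -0.51 to -0.48, 38 to 44 members higher and 200 to 210 lower.

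Replicate numbers did not pair the libraries: deviations of same-numbered libraries correlated at -0.01, -0.01 and 0.10, and WT replicates 1 and 2 correlated best with another number. With the replicate block, 42 members rose and 214 fell.

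For the 99 named genes, 1697 values under alternatives kept direction and call. In 65 values of 15 genes the call was lost, and in 11 values of 4 genes it was gained. ZNF250 had a log2 fold change of 0.04, and of -0.33 with log2(FPKM + 1) (limma adjusted p = 0.0444). ZNF431 (0.69 in counts) had -0.0246 with log2(FPKM + 1), with or without a filter, and -0.0523 with log2(FPKM + 0.1). ZNF850 (0.38 in counts) had -0.0237 and -0.0355 in the same fits. Members near 5 CPM have few counts, but precision did not follow the mean level alone. The SE was 0.16 for ZNF782, with a mean of 5.01 CPM, and 0.61 for ZNF395, with a mean of 28.3 CPM.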

Other observations

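ZNF395, a member that did not pass, was at 26.4, 27.1 and 5.87 CPM in WT and at 37.7, 36.0 and 37.5 CPM in PGK1_OE (log2 fold change 0.91, SE 0.61, edgeR adjusted p = 0.255). WT replicate 3 was far below the other libraries, and without it the log2 fold change was 0.48 with an edgeR adjusted p of 0.000119. ZNF23 was at 41.4, 43.2 and 27.5 CPM in WT and at 11.1, 5.85 and 14.2 CPM in PGK1_OE (log2 fold change -1.85, SE 0.41, edgeR adjusted p = 0.0140), and its call was lost with the replicate block (0.085) and without PGK1_OE replicate 1 (0.0504). Both genes overlap other annotated genes.

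Among the 182 ZNF genes under the minimum of 5 CPM, 101 had enough counts to be tested. Of these, 43 were lower in PGK1_OE and 17 higher, with a median log2 fold change of -0.43. Over all 3470 tested rows under 5 CPM, 26.0% were lower and 18.5% higher, with a median of -0.18, so the share of these ZNF genes that was higher (16.8%) lay near that of all such rows, and 42.6% were lower.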
